A study of Mus musculus with 12 samples.

Results

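The voltage-gated sodium and calcium channel genes were taken from the count table by symbol: the numbered sodium channel alpha genes ending in "a", the numbered genes of the Scn beta subunits, and the Cacna1, Cacna2d, Cacnb and Cacng genes. The rule found 39 genes of the 19878 in the table. They comprised 9 sodium channel alpha, 4 sodium channel beta, 10 calcium channel alpha1, 4 alpha2delta, 4 beta and 8 gamma genes. The alpha gene Scn2a1 (now Scn2a) carries an older symbol that the rule does not match, and is given beside the sodium channels without being counted among the 39. The data come from translating ribosome affinity purification (TRAP-seq) in Pomc-CreERT2; Rosa26-eGFPL10a mice labelled as C57BL/6, where Cre is driven by Pomc regulatory sequences and tamoxifen, given in the days before tissue collection, starts expression of the ribosomal protein L10a fused to eGFP. Beads with antibody to GFP were used on lysate of the arcuate nucleus, a region at the base of the hypothalamus that holds the neurons making proopiomelanocortin (POMC). The bound RNA (pull-down, PD) and what the beads left behind (supernatant, Sup) were sequenced at postnatal day 60 (P60) and postnatal day 12 (P12). By the paper's schedule, the last tamoxifen dose came closer to collection at P12 than at P60. Age and time since dosing therefore cannot be told apart. The 12 libraries form 4 groups of 3 replicates, P60 pull-down, P60 supernatant, P12 pull-down and P12 supernatant. All mice carried both transgenes and all received tamoxifen, so no group without the tag was compared, and the supernatant still holds RNA of the tagged cells.

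Voltage-gated sodium channels carry the upstroke of the action potential. Each is built on 1 large alpha subunit that forms the pore, with small beta subunits that alter gating and surface delivery. Voltage-gated calcium channels turn depolarization into calcium entry. Their alpha1 subunits define the L type (Cacna1c, Cacna1d, Cacna1f, Cacna1s), the P/Q, N and R types at presynaptic terminals and in somata (Cacna1a, Cacna1b, Cacna1e), and the low-threshold T type (Cacna1g, Cacna1h, Cacna1i). The alpha2delta and beta subunits assist the trafficking of alpha1, whereas most gamma genes of the brain encode transmembrane AMPA receptor regulatory proteins (TARPs) rather than parts of a calcium channel. In POMC neurons, as in other neurons that release peptides, these channels set firing and couple it to secretion.

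The sodium channel alpha genes are close relatives, and short reads from conserved stretches cannot be placed on a single gene. Over all annotated exons, the share of 50-base windows (the length of the reads) that also occur in another gene was 8.36% for Scn3a, 8.18% for Scn2a1, 5.33% for Scn1a and 5.32% for Scn9a, shared with each other, against 0.05% for Scn8a. Counts of the chromosome 2 genes therefore have a small part that could be split between them. Overlap with other transcripts was larger for Cacnb4 (15.44% of windows, most shared with A430018G15Rik) and Cacna1s (15.96%, shared with the antisense Gm37759), and reached 5.9% for Cacna1d, which overlaps Chdh.

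Totals ran from 10791980 to 18774445 counts in P60 pull-down, 16143825 to 22422476 in P60 supernatant, 6305778 to 19814679 in P12 pull-down and 23785154 to 35249290 in P12 supernatant. P12 pull-down 1 was the shallowest library, and 8 of the 39 genes had no count in it. Among 31 channel genes with at least 5 CPM (the count relative to the library total) on average, the median SD of log2 CPM over replicates was 0.264 in P60 pull-down and 0.102 in P60 supernatant, and 0.259 in P12 pull-down and 0.093 in P12 supernatant. Differences that involve pull-downs were thus measured less precisely. The capture differed between ages. Pomc had 3080, 2530 and 4510 CPM in P60 pull-down, against 26.1, 18.4 and 60.3 CPM in P60 supernatant, while it had 9.83, 21.9 and 81.7 CPM in P12 pull-down, against 7.90, 7.71 and 9.36 CPM in P12 supernatant. The log2 fold change of Pomc was 6.96 ± 0.19 (SE) at P60 and 2.01 ± 0.53 at P12, and that of GFP was 3.26 ± 0.18 at P60 and 1.15 ± 0.28 at P12. Summed levels of 8 POMC neuron markers were 3790 to 5930 CPM in P60 pull-down and 191 to 264 CPM in P60 supernatant, but 112 to 267 CPM in P12 pull-down and 207 to 240 CPM in P12 supernatant. The P12 pull-down therefore bears the POMC label weakly by these markers.

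Sodium channel alpha genes are compared with each other as CPM per kilobase of exonic length. In P60 pull-down, Scn2a1 led with 24.7 ± 1.79 CPM per kb (SD, n = 3), above Scn1a (16.4 ± 0.566) and Scn8a (15.7 ± 1.77), which did not differ from each other beyond their spread. Scn3a (6.23 ± 0.22) and Scn9a (3.72 ± 1.08) followed. P60 supernatant had the same leading gene, Scn2a1 at 28.2 ± 2.95, followed by Scn1a at 20.2 ± 0.623, Scn8a at 16.2 ± 0.736 and Scn3a at 7.78 ± 0.58. In P12 pull-down the order was Scn2a1 (26.7 ± 7.95), Scn8a (13.6 ± 1.84), Scn1a (10.3 ± 2.29) and Scn3a (8.74 ± 0.351), with overlapping spreads between Scn8a and Scn1a and between Scn1a and Scn3a. In P12 supernatant it was Scn2a1 (34.3 ± 1.16), Scn8a (15.8 ± 0.804), Scn1a (14.7 ± 0.649) and Scn3a (13.3 ± 0.309). Scn8a and Scn1a did not differ beyond their spread there either. The order below Scn2a1 depends on the length used. With the longest transcript that has a RefSeq match, Scn8a was at 17.1 and Scn1a at 16.7 in P60 pull-down. In P12 supernatant, Scn8a was then at 17.2, Scn3a at 15.1 and Scn1a at 14.9. Scn7a, a sodium-sensing relative that is hardly voltage-gated, stayed at 0.727 ± 0.298 in P60 pull-down and 1.35 ± 0.152 in P60 supernatant.

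Among calcium channel alpha1 genes, Cacna1a, the pore of the P/Q type, was highest per length in all 4 groups. Its level was 20.6 ± 1.64 CPM per kb (SD, n = 3) in P60 pull-down and 15.9 ± 0.756 in P60 supernatant, and 25.7 ± 2.92 in P12 pull-down and 20.4 ± 1.03 in P12 supernatant. The gene in the next place differed by fraction. Cacna1e (R type) stood next in pull-downs, at 13.7 ± 4.44 at P60 and 16.6 ± 1.11 at P12, with Cacna1b (N type) within its spread at 11.4 ± 3.32 at P60 and 15.7 ± 1.47 at P12. The spread of Cacna1g, at 14.7 ± 2.99 in P12 pull-down, also overlapped that of Cacna1e. In supernatants the T-type gene Cacna1g came next. It was at 12.6 ± 0.429 at P60, where the spread of Cacna1e (11.2 ± 1.9) overlapped its own. At P12 it was at 19.3 ± 2.06 and overlapped Cacna1a. As a share of the summed per-length level of the 10 alpha1 genes, Cacna1a made up 27.8% ± 1.76 in P60 pull-down and 22.6% ± 1.35 in P60 supernatant. The share of Cacna1g was 10.9% ± 1.5 in P60 pull-down and 17.8% ± 0.86 in P60 supernatant. The L-type genes were low per length, with group means of 4.43 to 4.83 CPM per kb for Cacna1c and 3.57 to 6.36 for Cacna1d. This was not particular to the L type. The T-type genes Cacna1h (4.06 to 6.45) and Cacna1i (6.11 to 7.54) were in or near the same range.

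**Figure D1:**
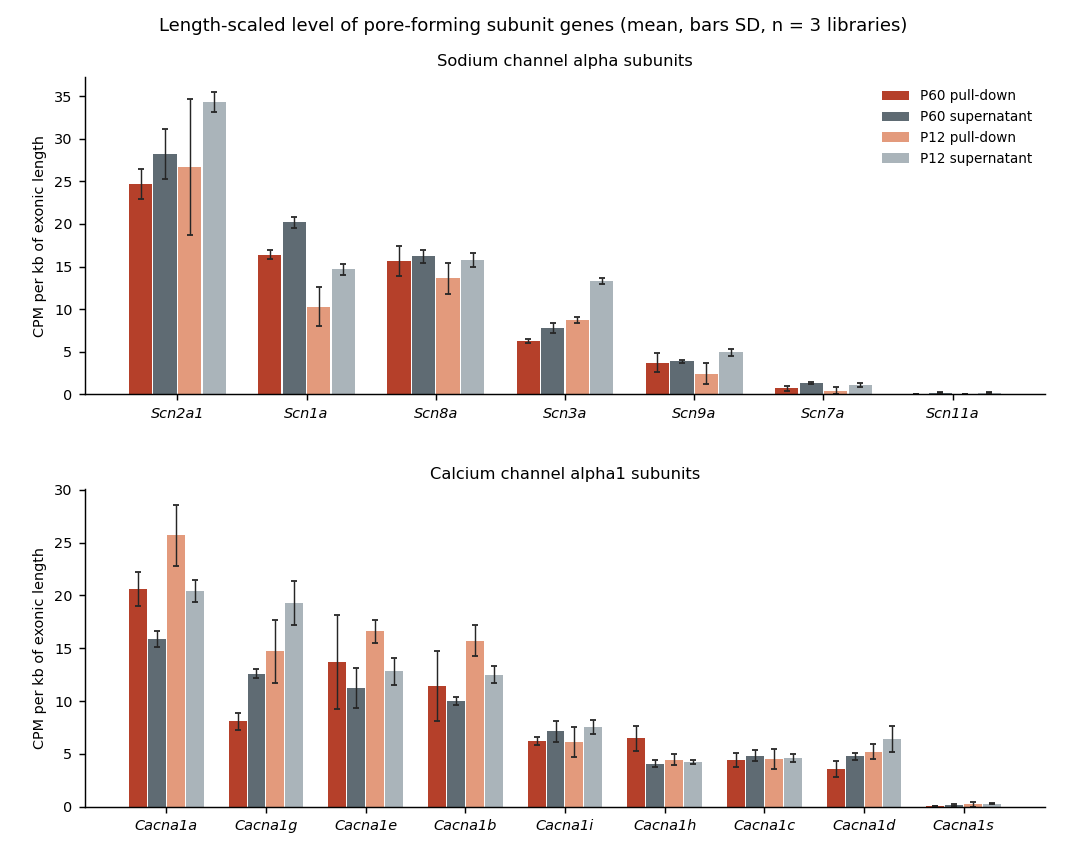
Level of pore-forming subunit genes, as CPM per kb of exonic length on the vertical axis. Bars are means and error bars SD over 3 libraries of P60 pull-down, P60 supernatant, P12 pull-down and P12 supernatant. Scn2a1 leads the sodium channel genes in every group, and Cacna1a leads the calcium channel genes with 20.6 CPM per kb in P60 pull-down and 15.9 in P60 supernatant.

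Pull-down was set against supernatant at each age to ask which channel genes were enriched in the RNA of tagged ribosomes. At P60, 33 of the 39 genes passed the filter on low counts. Of these, 3 (9.09%) were called higher in pull-down, where 7.11% of all tested genes were, and 2 (6.06%) lower, where 4.53% of all tested genes were. The higher genes were Cacng5, Cacna1h and Cacna1a, and the lower ones Scn3b and Cacnb4. At P12, 34 genes were tested, of which 3 (8.82%) were called higher, against 6.28% of all tested genes, and 0 lower, against 1.95%. The higher genes at P12 were Cacna1e, Cacna1a and Cacna1b. These 3 calls were lost with library totals alone and after a correction for exonic length, both described below. DESeq2 called the same channel genes at both ages. An unadjusted edgeR p under 0.05 was found for 12 of the 33 genes at P60 and 5 of the 34 at P12. The share of all tested genes at that unadjusted p was not counted, so these numbers have no background beside them. Calls throughout are edgeR's at an adjusted p under 0.05. In bulk RNA, fewer cells of a type and less RNA per cell cannot be told apart. The median log2 fold change of the channel genes was -0.10 at P60 and -0.21 at P12, beside -0.10 at P60 and -0.27 at P12 over all tested genes.

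**Figure D2:**
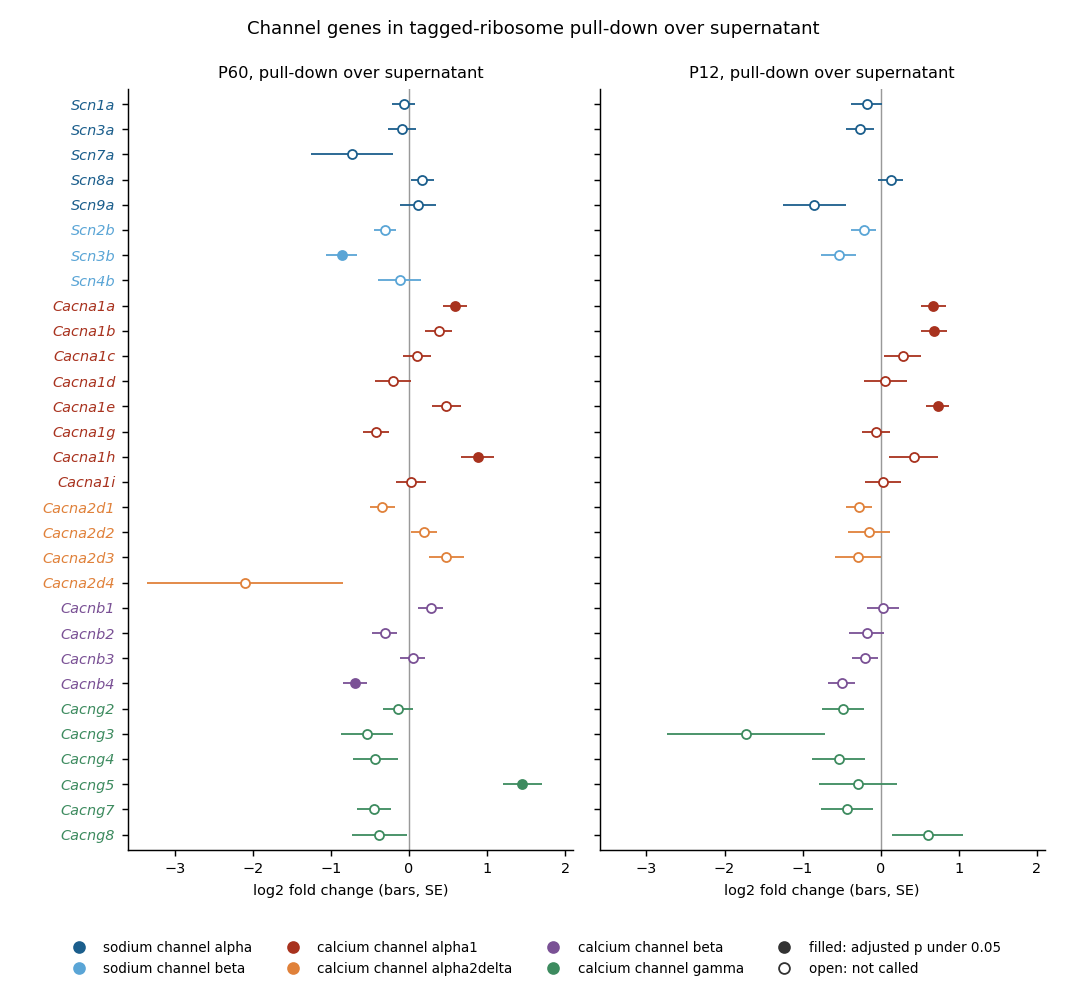
Log2 fold change of pull-down over supernatant on the horizontal axis, at P60 (left) and at P12 (right), for the tested channel genes reported, coloured by subunit class. Bars are SE, filled points have an adjusted p under 0.05, and genes with an SE above 1.5 are not drawn. Cacng5 lies farthest to the right at P60 (1.45), and the 3 filled points at P12 are Cacna1a, Cacna1b and Cacna1e.

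CPM values are scaled by the library total, whereas the fold changes use TMM factors, which raise the pull-downs relative to it. With library totals alone, the median of all genes was lower by 0.22 at P60 and by 0.35 at P12 on the log2 scale. A gene with like CPM in both fractions therefore has a log2 fold change above 0, and calls near the threshold move with the scaling. Neither scaling reversed the direction of a called channel gene, but with library totals alone the calls of Cacna1a at P60 (0.37) and of Cacna1a (0.32), Cacna1b (0.33) and Cacna1e (0.38) at P12 were lost. The genes called lower then numbered 7 at P60 and 6 at P12.

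Cacna1a encodes the alpha1 subunit that triggers fast transmitter release at many synapses. At P60 it had 153, 158 and 178 CPM in pull-down, against 133, 125 and 121 CPM in supernatant. Every pull-down lay above every supernatant, and the log2 fold change was 0.59 ± 0.15 (SE, adjusted p 0.00619, higher in 3 of 3 pairs). At P12 it had 205, 226 and 180 CPM in pull-down, against 164, 153 and 169 CPM in supernatant. The groups were again apart, with a log2 fold change of 0.67 ± 0.16 (adjusted p 0.0134, higher in 3 of 3 pairs).

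Cacna1e, the R-type subunit, had 259, 267 and 234 CPM in P12 pull-down, against 197, 176 and 213 CPM in P12 supernatant. All 3 pull-downs were above the supernatants, by 0.73 ± 0.15 on the log2 scale (adjusted p 0.00477). At P60 it had 137, 221 and 271 CPM in pull-down, against 199, 141 and 174 CPM in supernatant, a spread in which the groups overlapped. The change there was 0.48 ± 0.18 and was not called (adjusted p 0.0799, 95% interval 0.12 to 0.85), though without the low-count filter it was called at the same fold change (0.48). Cacna1b, the N-type subunit, had 170, 146 and 144 CPM in P12 pull-down, against 123, 114 and 129 CPM in P12 supernatant. These groups did not overlap, and the log2 fold change was 0.68 ± 0.17 (adjusted p 0.0173). At P60 Cacna1b had 96.8, 89.5 and 149 CPM in pull-down, against 99.9, 94.1 and 99.7 CPM in supernatant, with only P60 pull-down 3 clearly higher, and a log2 fold change of 0.38 (adjusted p 0.15, 95% interval 0.04 to 0.71).

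The T-type genes did not move alike. Cacna1h had 47.2, 47.8 and 64.2 CPM in P60 pull-down, against 36.5, 31.9 and 31.8 CPM in P60 supernatant. All pull-downs were higher, by 0.88 ± 0.21 on the log2 scale (adjusted p 0.00343). At P12 it had 32.2, 40.5 and 37.1 CPM in pull-down, against 36.2, 33.2 and 34.8 CPM in supernatant, overlapping groups with a log2 fold change of 0.42 (95% interval -0.26 to 1.10). Cacna1g had 62.7, 76.3 and 66.6 CPM in P60 pull-down, against 109, 103 and 109 CPM in P60 supernatant. Every pull-down was lower, yet the TMM-scaled log2 fold change of -0.42 ± 0.17 was not called (adjusted p 0.109), and it was called with library totals alone (-0.64). Cacna1i was not called at either age (0.03 ± 0.19 at P60 and 0.03 ± 0.23 at P12), nor were the L-type genes Cacna1c (0.10 ± 0.18 at P60) and Cacna1d (-0.20 ± 0.23 at P60).

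Among the beta subunits, which bind alpha1 inside the cell, Cacnb4 was the one called. It had 120, 109 and 97.3 CPM in P60 pull-down, against 216, 198 and 198 CPM in P60 supernatant. The groups were far apart, with a log2 fold change of -0.69 ± 0.15 (adjusted p 0.00111, lower in 3 of 3 pairs). At P12 Cacnb4 had 117, 95.5 and 98.0 CPM in pull-down, against 208, 185 and 168 CPM in supernatant. The groups were equally separate by CPM, but the log2 fold change of -0.50 ± 0.17 missed the threshold (adjusted p 0.082). Because the strand setting of the counting is not known, reads of A430018G15Rik may enter the Cacnb4 counts. Cacnb1 (0.28 ± 0.16), Cacnb2 (-0.31 ± 0.16) and Cacnb3 (0.05 ± 0.16) were not called at P60, nor at P12, where they lay between -0.20 and 0.03.

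None of the 4 alpha2delta genes, whose extracellular products hold channels at the membrane, was called at P60 or P12. That is near the shares of all tested genes, 7.11% higher and 4.53% lower at P60, and 6.28% and 1.95% at P12. At P60, 2 of the 4 had an unadjusted p under 0.05 and opposite signs. Cacna2d3 had 34.4, 43.6 and 41.9 CPM in pull-down, against 33.5, 31.4 and 35.2 CPM in supernatant (log2 fold change 0.48, 95% interval 0.02 to 0.93). Cacna2d1, a target of gabapentin, had 87.3, 65.8 and 104 CPM in pull-down, against 131, 105 and 139 CPM in supernatant (-0.34, 95% interval -0.66 to -0.02). Cacna2d2 had a log2 fold change of 0.19 at P60 and -0.15 at P12.

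Cacng5 had the highest log2 fold change of the channel genes at P60. Its product, TARP gamma-5, is a regulator of AMPA-type glutamate receptors. It had 33.0, 44.8 and 46.1 CPM in P60 pull-down, against 17.9, 17.1 and 17.5 CPM in P60 supernatant. All pull-downs were well above the supernatants, by 1.45 ± 0.25 on the log2 scale (2.73-fold, adjusted p 4.07e-05, higher in 3 of 3 pairs). At P12 Cacng5 had 16.5, 25.3 and 7.67 CPM in pull-down, against 21.1, 25.0 and 23.3 CPM in supernatant. The P12 groups overlapped, and the log2 fold change was -0.29 ± 0.50 (95% interval -1.35 to 0.77).

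The other TARP genes were not called at P60. Cacng2 (stargazin) had a log2 fold change of -0.14, Cacng3 -0.54, Cacng4 -0.43, Cacng7 -0.45 and Cacng8 -0.38 at that age. At P12 they ran from -1.73 for Cacng3, which had no count in P12 pull-down 1, to 0.60 for Cacng8. As a share of the summed per-length level of the gamma genes, Cacng5 was 21% ± 4.05 in P60 pull-down and 7.18% ± 0.215 in P60 supernatant (SD, n = 3), and 9.76% ± 5.74 in P12 pull-down and 8.68% ± 0.678 in P12 supernatant.

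No sodium channel alpha gene was called in pull-down against supernatant by edgeR at either age, and none of the 7 tested had an unadjusted p under 0.05. Over all tested genes, 7.11% were called higher and 4.53% lower at P60, and 6.28% and 1.95% at P12. With shares this small, 0 of 7 does not set the class apart. Scn8a, the alpha subunit of mature axon initial segments, had 190, 217 and 174 CPM in P60 pull-down, against 207, 190 and 203 CPM in P60 supernatant. Its log2 fold change was 0.17 (95% interval -0.13 to 0.47), and that of Scn1a was -0.07 (95% interval -0.37 to 0.22). Scn2a1 had 212, 217 and 242 CPM in P60 pull-down, against 260, 227 and 280 CPM in P60 supernatant, with a log2 fold change of 0.04 (95% interval -0.26 to 0.33). At P12 the intervals were -0.22 to 0.48 for Scn8a, -0.60 to 0.23 for Scn1a and -0.41 to 0.29 for Scn2a1. Low genes were less well determined, such as Scn9a at P12 with -0.85 (95% interval -1.70 to 0.01) and Scn7a at -1.74 (-5.22 to 1.73).

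Of the sodium channel beta genes, Scn3b was called lower at P60. Its product is a beta subunit prominent in the immature brain. It had 45.3, 33.2 and 29.9 CPM in P60 pull-down, against 78.0, 71.3 and 78.2 CPM in P60 supernatant. The groups were apart, by -0.86 ± 0.20 on the log2 scale (adjusted p 0.00176, lower in 3 of 3 pairs). At P12 it had 44.4, 74.1 and 55.1 CPM in pull-down, against 102, 103 and 110 CPM in supernatant, again without overlap, and the log2 fold change of -0.54 ± 0.22 was not called (adjusted p 0.18). Scn2b (-0.31) and Scn4b (-0.12) were not called at P60.

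**Figure D3:**
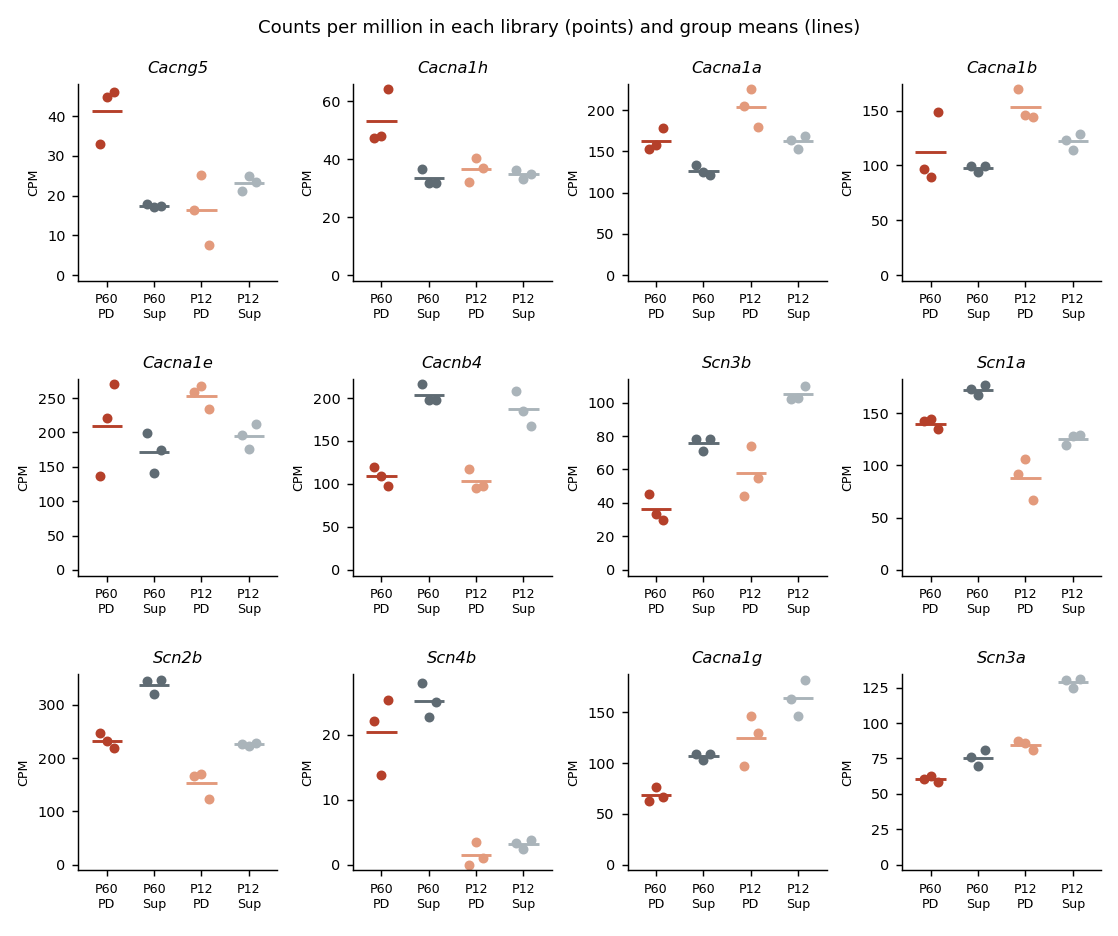
CPM in each library (points) and the group mean (line) for 12 channel genes, with P60 pull-down (PD), P60 supernatant (Sup), P12 pull-down and P12 supernatant from left to right and CPM on a linear axis. Cacng5 stands at 33.0 to 46.1 CPM in P60 pull-down and at most 25.3 CPM in every other library, and Scn4b is at 13.8 CPM or more in each P60 library and at most 3.86 CPM in each P12 library.

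The calls at both ages rested partly on single libraries. Without P60 replicate 3, Cacna1a (0.49), Cacna1h (0.70), Cacnb4 (-0.63) and Scn3b (-0.73) were no longer called, and Cacng5 alone remained. With all 12 libraries in 1 fit, Cacna1h (0.86) was not called. Without P60 replicate 1, Cacna1e (0.91) and Cacna1b (0.52) were called as well. Without P12 replicate 2, Cacna1a (0.55) and Cacna1b (0.66) lost their calls at P12.

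Exonic length moved with the P12 result. Over all tested genes at P12, the median log2 fold change ran from -0.855 in the shortest of 20 length bins to 0.209 in the longest, and 0.0% of the shortest against 26.6% of the longest were called higher. At P60 the medians were -0.081 and 0.071, with 4.2% of the shortest and 23.1% of the longest called higher. The 3 genes called higher at P12 have 7926 (Cacna1a), 9782 (Cacna1b) and 15251 (Cacna1e) exonic bases, beside a median of 2934 bases over all genes. After removal of the length trend, 0 channel genes were called higher at P12, and the log2 fold changes were 0.50 for Cacna1a, 0.42 for Cacna1b and 0.28 for Cacna1e. All 5 calls at P60 held after the correction, and Cacna1g (-0.47) was called lower there as well. Cacng5 has 3834 exonic bases. Across genes, log2 length and log2 fold change had a Pearson r of 0.10 over the 33 channel genes at P60 and 0.19 over the 34 at P12, beside 0.12 and 0.28 over all genes. Genes are not independent replicates, and these values are descriptive.

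**Figure D4:**
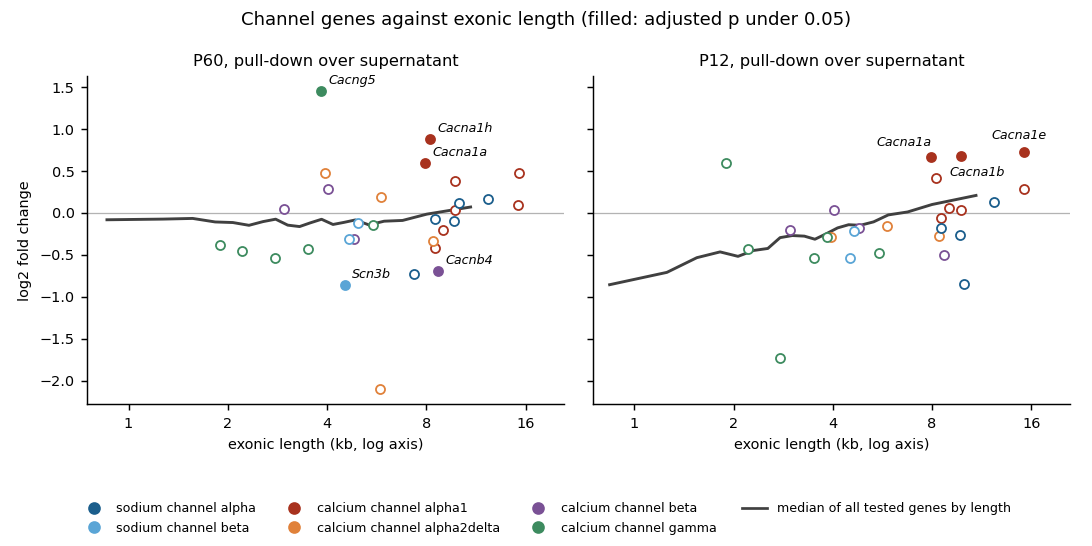
Log2 fold change of pull-down over supernatant (vertical axis) against exonic length in kb (horizontal log axis) for the tested channel genes reported at P60 (left) and P12 (right). The line joins the medians of all tested genes in 20 length bins, filled points have an adjusted p under 0.05, and genes with an SE above 1.5 are not drawn. The line climbs at P12, where its last bin is at 0.209, and is nearly level at P60, where Cacng5 lies far above it.

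A test over all 12 libraries asked whether enrichment in pull-down was larger or smaller at P60 than at P12. Of 35 channel genes tested by edgeR, 0 were called higher at P60 than at P12, where 0.438% of all tested genes were, and 0 lower, where 0.686% were. Only Cacng5 had an unadjusted p under 0.05. Its difference was 1.70 ± 0.54 on the log2 scale (95% interval 0.59 to 2.81, adjusted p 0.152). DESeq2 called Cacng5 alone (1.71), and edgeR did so without P12 replicate 1 (1.84). For Cacna1a the difference was -0.12 (95% interval -0.58 to 0.35), and for Cacna1h it was 0.43 (95% interval -0.35 to 1.21).

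The ages were then compared within each fraction, as P60 over P12 in different mice. In supernatant, which samples the whole arcuate tissue, 34 channel genes were tested. Of these, 5 (14.7%) were called higher at P60, where 20.9% of all tested genes were, and 16 (47.1%) lower, where 20.8% of all tested genes were. Their median log2 fold change was -0.21, beside 0.00 over all tested genes. In pull-down, 32 were tested, 1 of them (3.12%) called higher, where 1.89% of all tested genes were, and 1 (3.12%) lower, where 3.11% were. An unadjusted p under 0.05 was found for 11 of the 32 in pull-down and 22 of the 34 in supernatant. The share of all tested genes at that unadjusted p was not counted. With library totals alone, the median of all genes was higher by 0.17 in pull-down and by 0.04 in supernatant on the log2 scale. Levels of cell type markers moved with age, and cell number and RNA per cell cannot be told apart. All 10 myelin genes were higher at P60 in supernatant (summed level 2260 to 2310 CPM at P60 and 1160 to 1280 CPM at P12), and 5 of 6 oligodendrocyte precursor genes were lower (276 to 287 CPM at P60 and 425 to 459 CPM at P12). The 10 pan-neuronal genes summed to 5780 to 5860 CPM at P60 and 5170 to 5920 CPM at P12, with 3 called higher and 4 lower. The part of these shifts in the channel results was not tested.

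**Figure D5:**
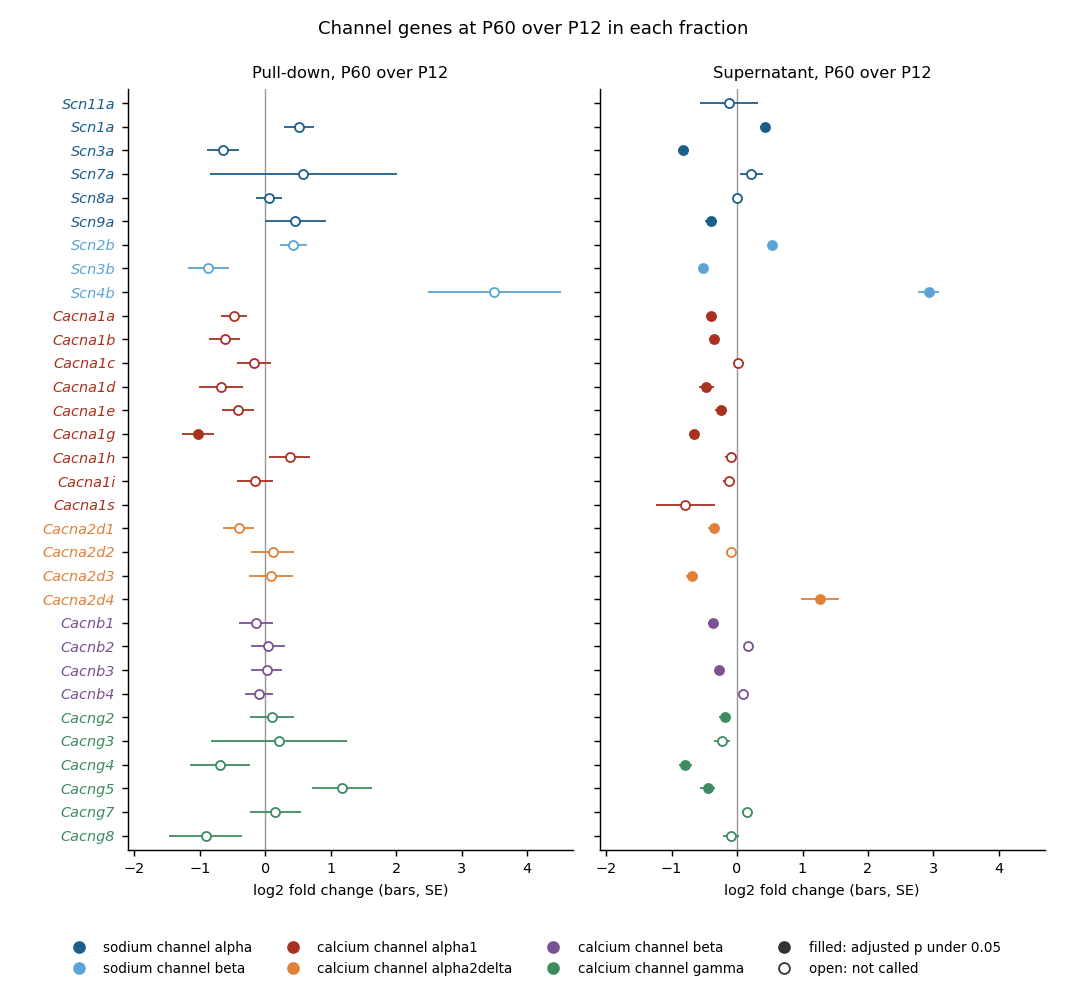
Log2 fold change of P60 over P12 on the horizontal axis, in pull-down (left) and in supernatant (right), for the tested channel genes reported, coloured by subunit class. Bars are SE, filled points have an adjusted p under 0.05, and genes with an SE above 1.5 are not drawn. In supernatant Scn4b lies farthest to the right (2.93), and Scn3a (-0.82) and Scn3b (-0.52) are filled to the left.

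Scn4b had the largest log2 fold change of the 21 channel genes called with age in supernatant. Scn4b, the beta subunit tied to resurgent sodium current, had 28.0, 22.7 and 25.1 CPM in P60 supernatant, against 3.28, 2.46 and 3.86 CPM in P12 supernatant. The log2 fold change was 2.93 ± 0.16 (7.61-fold, adjusted p 2.75e-15). In pull-down it had 22.1, 13.8 and 25.4 CPM at P60, against 0, 3.50 and 1.01 CPM at P12. The groups were apart there too, but P12 pull-down 1 held no count, and the change of 3.50 ± 1.01 missed the threshold (adjusted p 0.0566). It was called by DESeq2 (3.53), with library totals alone (3.70), without the filter on low counts (3.51), without P12 pull-down 1 (2.98) and without P12 pull-down 2 (4.92).

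Scn2b had 344, 321 and 347 CPM in P60 supernatant, against 227, 222 and 228 CPM in P12 supernatant, a rise of 0.54 ± 0.07 on the log2 scale (adjusted p 1.66e-07). In pull-down it had 247, 232 and 220 CPM at P60, against 167, 170 and 123 CPM at P12, apart but not called (0.43, 95% interval 0.01 to 0.86). Scn3b went the other way. It had 78.0, 71.3 and 78.2 CPM in P60 supernatant, against 102, 103 and 110 CPM in P12 supernatant (-0.52 ± 0.08, adjusted p 2.2e-06). In pull-down Scn3b was at -0.87 (95% interval -1.53 to -0.20, not called), and it was called without P12 pull-down 1 (-1.04). Within the per-length sum of the sodium channel beta genes, Scn3b was 5.37% ± 0.335 in P60 pull-down and 15.9% ± 2.91 in P12 pull-down (SD, n = 3), and 8.52% ± 0.443 in P60 supernatant and 19.3% ± 0.864 in P12 supernatant.

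Scn2b (chr9:45117782-45130070) and Scn4b (chr9:45138395-45154152) are neighbours on the plus strand, and both were called higher at P60 in supernatant. The 250 bases before the RefSeq start site of each are shown because these adjacent genes were called in the same direction. They come from RefSeq on GRCm38.p6, at chr9:45117626-45117875 for Scn2b and chr9:45138374-45138623 for Scn4b, plus strand. RefSeq and GENCODE place the starts differently, and 94 bases of the Scn2b window and 229 of the Scn4b window lie inside the GENCODE gene. Capitals mark CpG dinucleotides, the sites of DNA methylation.
Scn2b: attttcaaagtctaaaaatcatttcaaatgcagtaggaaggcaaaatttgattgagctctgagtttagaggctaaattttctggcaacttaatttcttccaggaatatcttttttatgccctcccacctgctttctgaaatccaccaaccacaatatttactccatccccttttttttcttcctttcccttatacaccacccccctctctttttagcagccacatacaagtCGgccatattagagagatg
Scn4b: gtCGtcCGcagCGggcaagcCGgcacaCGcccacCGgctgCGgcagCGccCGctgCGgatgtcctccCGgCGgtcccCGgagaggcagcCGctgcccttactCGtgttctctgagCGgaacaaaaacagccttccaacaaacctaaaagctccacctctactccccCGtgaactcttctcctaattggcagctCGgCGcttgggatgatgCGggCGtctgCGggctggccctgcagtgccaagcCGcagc
The windows were unlike in composition. Scn4b had 66.0% G and C and 23 CpG sites, and Scn2b had 38.4% and 1, beside medians of 52.4% and 6 over all 32851 mouse windows. Both strands were searched for 5 short motifs, and neither window held any of them. Of all windows, 32.7% hold the GC box GGGCGG, and 12.4% hold the TATA box TATAAA. The cyclic AMP response element TGACGTCA occurs in 1.5%. The E-box CACGTG occurs in 6.0% and the E-box CAGCTG in 13%. Windows were found for 29 of the 39 genes, and an absent motif says only that its letters are not in this window.

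Among sodium channel alpha genes, Scn1a and Scn3a moved in opposite directions with age in supernatant. Scn3a, an alpha subunit prominent before and around birth, had 75.8, 69.6 and 80.8 CPM in P60 supernatant, against 130, 125 and 131 CPM in P12 supernatant (-0.82 ± 0.08, adjusted p 4.18e-10). In pull-down it had 60.7, 62.4 and 58.2 CPM at P60, against 87.1, 86.2 and 80.8 CPM at P12, without overlap, at -0.65 (95% interval -1.16 to -0.14, adjusted p 0.144). Scn1a had 173, 167 and 177 CPM in P60 supernatant, against 119, 128 and 129 CPM in P12 supernatant (0.42 ± 0.07, adjusted p 2.92e-05). In pull-down Scn1a had 142, 144 and 135 CPM at P60, against 91.3, 106 and 67.1 CPM at P12, apart but not called (0.51, 95% interval 0.02 to 0.99).

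Scn9a (-0.40) and Scn2a1 (-0.33 ± 0.08) were also called lower at P60 in supernatant. Scn8a was not called in either fraction, with -0.00 (95% interval -0.15 to 0.14) in supernatant and 0.05 (95% interval -0.39 to 0.48) in pull-down. As a share of the per-length sum of the 9 alpha genes and Scn2a1, Scn3a was 8.97% ± 0.351 in P60 pull-down and 13.4% ± 1.45 in P12 pull-down, and Scn1a was 23.7% ± 0.953 and 15.7% ± 3.1 in those groups (SD, n = 3).

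The calcium channel genes called with age in supernatant were lower at P60 in all cases but 1. Among alpha1 genes, 5 of 9 (55.6%) were lower and none higher, where 20.8% of all tested genes were lower and 20.9% higher. Cacna1g had 109, 103 and 109 CPM in P60 supernatant, against 163, 147 and 182 CPM in P12 supernatant (-0.66 ± 0.08, adjusted p 5.24e-08). In pull-down it had 62.7, 76.3 and 66.6 CPM at P60, against 97.1, 147 and 130 CPM at P12, also without overlap (-1.03 ± 0.25, adjusted p 0.0233). That pull-down call held without P12 pull-down 1 (-1.20), but was lost after the length correction (-0.79) and on leaving out any other of the 6 libraries (-1.13 to -0.87). Cacna1d (-0.47), Cacna1a (-0.40), Cacna1b (-0.36) and Cacna1e (-0.24) were the others. The call of Cacna1e was lost with library totals alone (-0.19), without P12 supernatant 3 (-0.15), without P60 supernatant 2 (-0.12) and after the length correction (-0.09).

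Of the auxiliary calcium channel genes, Cacna2d3 (-0.69), Cacna2d1 (-0.36), Cacnb1 (-0.37) and Cacnb3 (-0.27) were lower at P60 in supernatant. Cacna2d4, known best from photoreceptors, was the exception. It had 3.99, 4.68 and 4.03 CPM in P60 supernatant, against 1.98, 1.15 and 2.04 CPM in P12 supernatant, low but separate levels (1.26 ± 0.29, adjusted p 0.000776). Cacng4 had 29.4, 23.8 and 22.7 CPM in P60 supernatant, against 41.0, 41.8 and 44.5 CPM in P12 supernatant (-0.79 ± 0.10, adjusted p 1.53e-07). Cacng5 was also lower there (-0.45), while in pull-down it had 33.0, 44.8 and 46.1 CPM at P60, against 16.5, 25.3 and 7.67 CPM at P12, all P60 libraries being higher, and was not called (1.17 ± 0.46, adjusted p 0.174). The call of Cacng2 (-0.19) was lost on leaving out any 1 of the 6 supernatants (-0.21 to -0.17). Cacnb2 was called higher without P12 supernatant 1 (0.22), with library totals alone (0.21) and after the length correction (0.19), and without P60 supernatant 1, Cacna1s was called lower (-1.46).

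Genes of proteins that bind or anchor these channels were examined as a list of 26 partner genes in the table. The list was chosen with earlier results of these data known, so its shares are descriptive and are no test of the set. At P60, 6 of 24 tested (25.0%) were called higher in pull-down, where 7.11% of all tested genes were, and 2 (8.33%) lower, where 4.53% were. At P12, 7 of 25 (28.0%) were called higher, where 6.28% of all tested genes were, and 1 (4.0%) lower, where 1.95% were. These shares are set against genes of any length, and 26.6% of the longest genes were called higher at P12. The part of exonic length in the partner shares was not tested. Among anchors of the axon initial segment, Ank3 (ankyrin-G, which tethers sodium channels there) was higher in pull-down by 1.76 ± 0.16 at P60 and 2.59 ± 0.14 at P12 on the log2 scale, and Spnb4 (beta-IV spectrin) by 0.87 ± 0.15 at P60 and 1.99 ± 0.14 at P12. Gem (2.25 ± 0.51) and Rrad (1.80 ± 0.28), small GTPases that inhibit calcium channels through the beta subunit, were called higher at P60. Fgf12, whose product binds sodium channel tails, was lower at both ages (-0.66 ± 0.15 at P60 and -0.76 ± 0.18 at P12). Unc80, a subunit of the NALCN sodium leak channel complex, was higher at both ages (0.62 ± 0.15 at P60 and 0.67 ± 0.14 at P12). Of these calls, that of Unc80 at P12 was lost with library totals alone (0.33) and after the length correction (0.28), and that of Unc80 at P60 without the replicate block (0.67), without P60 replicate 2 (0.39) and without P60 replicate 3 (0.59). The call of Gem was lost without P60 replicate 2 (1.58) and with all 12 libraries in the fit (2.23), and that of Fgf12 without P60 replicate 3 (-0.64) at P60 and without P12 replicate 3 (-0.73) at P12. With age, 0 of 24 partner genes were called higher in pull-down, where 1.89% of all tested genes were, and 4 (16.7%) lower, where 3.11% were. In supernatant, 6 of 26 (23.1%) were higher, near the 20.9% of all tested genes, and 8 (30.8%) lower, where 20.8% of all tested genes were.

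Levels of markers of other cell types also differed between the P60 fractions. Myelin genes summed to 1160 to 1250 CPM in P60 pull-down and 2260 to 2310 CPM in P60 supernatant (7 of 10 called lower), and astrocyte genes to 861 to 1070 CPM in P60 pull-down and 1210 to 1330 CPM in P60 supernatant (5 of 10 called lower). At P12, 2 of 10 myelin genes were called lower and 2 of 10 astrocyte genes higher, among them Gfap (1.48 ± 0.16). Markers of AGRP and other arcuate neurons summed to 183 to 282 CPM in P60 pull-down and 277 to 326 CPM in P60 supernatant. A list of muscle and heart genes summed to 136 to 192 CPM in P60 pull-down and 104 to 109 CPM in P60 supernatant (2 of 7 tested called higher). At P12 the list summed to 235 to 307 CPM in pull-down and 109 to 114 CPM in supernatant (2 of 8 tested called higher). The part of these gene lists in the channel results was not tested.

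Some channel genes known from muscle, retina or sensory neurons were near the limit of detection. Cacng1, Cacng6, Scn4a and Scn10a passed no filter in any comparison, and their highest counts in any library were 7, 3, 9 and 15. Cacng6 and Scn4a had no count in any pull-down. In P12 pull-down 1, the shallowest library, a count of 0 allows up to 0.476 CPM, and in P12 supernatant 3, the deepest, up to 0.0851 CPM, covering counting error only. Cacna1f, the retinal L-type gene, had 0 counts in all 3 P60 pull-downs and 5, 0 and 49 in P12 pull-down, and Cacna1s, that of skeletal muscle, had 2, 3 and 4 in P60 pull-down and 9, 52 and 0 in P12 pull-down. Scn11a had 15, 21 and 21 counts in P60 supernatant and 25, 43 and 31 in P12 supernatant, and at most 10 in any pull-down. None of these was called with all 3 replicates of each group.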

How the data were processed

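TRAP-seq libraries of 12 samples were compared. The deposited values are whole-number counts per gene, for which the authors used HTSeq on 50-base single-end reads aligned by TopHat2 2.0.13 (Bowtie2 2.2.1) against mm10. Whether counting used strand is not given in the sources used here. Single-sample files of all 12 libraries held the same values as the table, and 635 of 19878 genes had no count. The members and gene lists were chosen with earlier results of these data known. Genes were named by rule: every channel gene called in a comparison, and those passing no filter. Some items are counted in the totals but not reported here.

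Counts were tested with edgeR 4.0.16 (TMM factors, filterByExpr, quasi-likelihood test, Benjamini-Hochberg over all tested genes, threshold 0.05) in R 4.3.3. The SE of a log2 fold change was taken from the F statistic, and 95% intervals used the t distribution with the test's degrees of freedom. Pull-down against supernatant used the replicate number as a block, after the study's paired model. Correlations of same-numbered libraries were 0.0032 to 0.0378, so the numbers themselves give little sign of pairing. Ages were compared without a block. The paper describes the experiments as independent and the replicates as biological. Nothing in the labels says that replicates are separate animals, so p-values measure the spread between these samples. CPM used the library total, and exonic lengths and positions came from GENCODE on mm10 (98.3% of genes matched). Alternatives were other size factors (library total, DESeq2 1.42.0), no low-count filter, DESeq2, a length correction, the block, all libraries in 1 fit, and leaving out each replicate. The scripts were tested on simulated data.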

Additional observations from a re-analysis of the deposited data

Results flagged for a closer look

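In the test of the difference itself (edgeR, P60 enrichment less P12 enrichment), no channel gene was called, but 2 partner genes were. A missed call is not evidence of equal enrichment. The channel gene Cacng5 had a difference of 1.70 ± 0.54 on the log2 scale (adjusted p 0.152). It was called by DESeq2 (1.71) and by edgeR without P12 replicate 1 (1.84). For Spnb4 (beta-IV spectrin) the difference was -1.16 ± 0.22 on the log2 scale (adjusted p 0.00578), with enrichment of 0.87 at P60 and 1.99 at P12. For Rims1, a presynaptic active zone protein that binds calcium channels, it was -1.21 ± 0.20 (adjusted p 0.00213), with -0.38 at P60 and 0.79 at P12. These were 2 of 26 partner genes tested, where 0.686% of all tested genes were called lower. The partner list was chosen with earlier results of these data known, so this share is descriptive. Of 24 alternative values for both differences, 23 kept the call. That of Spnb4 was lost without P60 replicate 1 (-0.86). After the length correction the difference was -0.97 for Spnb4 and -1.06 for Rims1.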

How the results depend on the processing

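Of 356 alternative values for the 31 channel gene results, 319 kept their direction and their side of the threshold, 37 kept the direction but missed the threshold, and 0 reversed. For 36 results of partner genes, 344 of 400 alternative values kept the call, 56 kept the direction but missed the threshold, and 0 reversed. The causes were not tested. At P12, the 3 channel genes called higher became 0 with library totals alone and 0 after the length correction, and 1 to 3 on leaving out a replicate. The 0 called lower at P12 became 6 with library totals alone, 1 after the length correction (Cacnb4), 1 without the replicate block and 1 with all 12 libraries in the fit. At P60, the 3 called higher became 1 to 5 on leaving out a replicate, and the 2 called lower became 7 with library totals alone and 0 to 2 on leaving out a replicate. For the difference of enrichment, DESeq2 called 1 higher, and leaving out a replicate gave 0 to 1. Between pull-downs, the 1 called higher became 2 with library totals alone, 2 without the filter, 2 with DESeq2, 0 after the length correction and 0 to 2 on leaving out a replicate, and the 1 called lower became 0 after the length correction and 0 to 2 on leaving out a replicate. Among the counts of channel genes the block changed no other: without it, 3 were higher and 2 lower at P60, and with it, 5 were higher and 16 lower between supernatants.

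Over all genes, library totals alone gave 534 higher and 1390 lower at P12 (933 and 289 with TMM), and 614 higher and 1790 lower at P60 (1027 and 655 with TMM). For the difference they gave 115 and 65 (67 and 105 with TMM), and between pull-downs 445 and 264 (256 and 422 with TMM). At P12, DESeq2 called 567 lower, the length correction left 175, the fit without the block gave 472 and all 12 libraries gave 657. At P60, all 12 libraries in the fit gave 610 higher and 242 lower, and leaving out a replicate gave 563 to 1154 higher and 275 to 683 lower. For the difference, no filter gave 161 and 202, DESeq2 223 and 226, the length correction 32 and 70, and leaving out a replicate 22 to 151 and 42 to 135. Between pull-downs, no filter gave 445 and 653, DESeq2 507 and 678, and leaving out a replicate 86 to 353 and 161 to 463. The shallowest library, P12 pull-down 1, held 6305778 counts, and without P12 replicate 1 the calls at P12 were 938 higher and 249 lower.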
